A study of Capra hircus with 3 samples.

Results

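The cells described here were 641 of the 6931 cells in the E90 library of fetal Cashmere goat back skin, chosen for high counts of dermal fibroblast genes. A cell was included when COL1A1, COL1A2, LUM, DCN, POSTN, FBLN1 and PDGFRA together made up at least 60 of every 10000 of its unique molecular identifiers (UMIs, the counted transcript molecules), and when fewer than 3 of 12 genes of the dermal papilla had a UMI in it. The papilla genes were TBX18, RSPO3, INHBA, WIF1, HHIP, CORIN, SOX2, SOX18, ALX4, NDP, FOXD1 and HEY1. The cells are called fibroblast-rule cells below, and they were 9.25% of the E90 library (exact 95% binomial interval 8.58 to 9.95) and 641 of 20676 cells in the whole series. All 19 rule genes were in the table. The levels of these genes chose the cells, so they are given as a description and support nothing.

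The study profiled single cells of Northern Shaanxi White Cashmere goat fetuses at E60, E90 and E120, that is, at 60, 90 and 120 days of gestation, with 1 droplet library per stage. Each library pooled suspensions from at least 2 fetuses, and cells were not traced back to a fetus, so no value has a replicate and none was tested. The E60 and E90 libraries came from whole back skin that was digested with collagenase IV and dispersed by pipetting. For E120 the follicles were picked out of digested skin and then dispersed with TrypLE, so stage and preparation cannot be told apart there. Levels are counts summed over the cells of a group and scaled to counts per 1000000 (CPM). Intervals in brackets are exact 95% intervals that cover counting error only, and the spread between fetuses is unknown.

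Fibroblasts of the dermis build the fibrous matrix of skin. Collagens form its fibrils, lysyl oxidases cross-link them, small leucine-rich proteoglycans such as decorin and lumican bind and space them, and fibrillins and fibulins build its elastic fibres. During fetal life the dermis also sends and receives the WNT, hedgehog, BMP and FGF signals through which follicles form, and a small group of its cells gathers under each follicle as the condensate and later the papilla. In the fetus, papillary fibroblasts lie near the epidermis and reticular fibroblasts lie deeper.

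In all, 3021466 UMIs came from the 641 cells. The median cell had 3771 UMIs from 1262 genes. The other 6290 cells of E90 held 27256197 UMIs, with medians of 3707 UMIs and 1195 genes. Mitochondrial transcripts took a median of 8.83% of the UMIs in fibroblast-rule cells and 11.4% in the other cells. The same rule took 5931 of 6849 cells at E60 (86.6%) and 124 of 6896 at E120 (1.80%), with medians of 8474 and 9930 UMIs. Of the 641 cells, 2 shared a barcode with an E60 cell and 1 with an E120 cell.

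Across E90 the fibroblast-gene sum ran without a gap. Its median over cells was 164 per 10000 at E60, 31.4 at E90 and 0.634 at E120. Among fibroblast-rule cells the median was 77.2, and 354 cells lay between 60 and 80, 130 between 80 and 100, and 157 at 100 or more. The border at 60 crossed a populated stretch, with 389 cells between 50 and 60 and 217 between 60 and 70. These are therefore cells above a chosen level on a continuous scale, not cells apart from the rest.

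**Figure D1:**
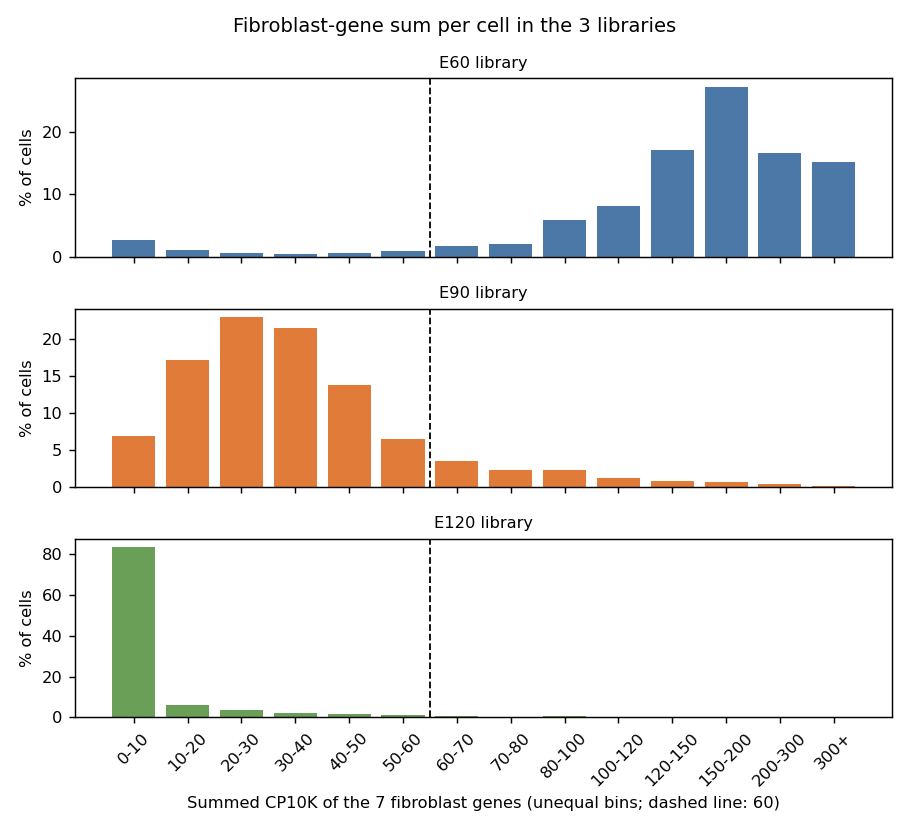
Share of cells in each library (vertical axis, percent) by the summed level of the 7 fibroblast genes (horizontal axis, UMIs per 10000, unequal bins), with the rule's minimum of 60 as a dashed line. Most E60 cells lie right of the line, while the E90 cells form a single hump around their median of 31.4 with a tail across the line.

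The label could be checked only in part. Of its 5 defining markers, COL1A1, COL1A2, LUM and DCN are rule genes, so their level was set by the choice of cells. The 5 together came to 10090.1 CPM, against 3045 CPM in other E90 cells and 13153 CPM in E60 cells under the same rule. OGN, the marker outside the rule, stood at 2016 CPM against 588 and 1094 CPM. Against the label, 24 epithelial marker genes, keratins and desmosome genes among them, summed to 3778 CPM in fibroblast-rule cells. The same genes summed to 9682 CPM in other E90 cells, 24076 CPM in the 1000 other cells with the most of them, and 2.26 CPM at E60. A further 39 E90 cells with at least 3 of 8 endothelial genes, which should make neither keratin nor fibrillar collagen, held 3026 CPM of the epithelial genes and 397 CPM of COL1A1. Keratin and collagen transcripts were thus found in every E90 group compared, and levels in the endothelial-gene cells are given below beside the levels they bear on.

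Markers of vessels, leukocytes, nerve sheath, muscle and fat were low in fibroblast-rule cells and in other E90 cells alike. Papilla and erythroid genes were not. The 14 endothelial genes summed to 46.7 CPM, with TIE1 and TEK at 0, and 14 myeloid and mast cell genes to 24.2 CPM. Schwann and melanocyte genes summed to 52.3 CPM, and skeletal muscle genes to 22.2 CPM, with MYOD1, MYF5, MYF6, MYOG, PAX7 and MYH8 at 0. Mural genes came to 169 CPM and adipocyte genes to 31.1 CPM. In other E90 cells these lists, in the same order, summed to 79.6, 57.2, 126, 30.7, 202 and 30.0 CPM. Their low levels were thus not particular to fibroblast-rule cells. The 25 condensate and papilla genes summed to 1267 CPM against 1459.5 CPM in other E90 cells, with ALX4 and RSPO2 at 0, and 97.2% of fibroblast-rule cells had a UMI of at least 1 of them. Erythroid genes, mainly the alpha globins HBAI and HBAII of red cells, reached 1046 CPM against 3119 CPM in other E90 cells, and 38.2% of fibroblast-rule cells had a UMI of them. The 2 globin genes are near-identical copies whose counts may have been split between them.

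Other fibroblast genes climbed with the sum, and epithelial genes declined with it. The other genes were OGN, CCDC80, ASPN, LRRC17, PLAC9, MMP2, COL6A3, COL5A2, ECM2 and FAP, chosen with earlier results of these data known. OGN, CCDC80, ASPN, COL5A2, ECM2 and FAP are also among the 20 highest named genes given below. Their climb is thus a description and no separate support for the label. The median level of 10 fibroblast genes outside the rule was 24.8 per 10000 in cells with a sum of 40 to 60, 32.7 at 60 to 80, 46.6 at 80 to 100, 66.5 at 100 to 150 and 92.7 above that. Over the same ranges the median of the epithelial genes was 66.1, 52.5, 32.6, 20.1 and 15. Median depth was 3443, 3508, 3950, 5513 and 6796 UMIs, and the mitochondrial share was 12.2%, 10.0%, 8.14%, 7.0% and 6.19%. Just outside the border at 60 the epithelial median was 60.3 and that of the other fibroblast genes 26.6, and just inside it they were 54.6 and 30.4. Depth, keratins and mitochondrial share moved with the sum, and their part in the differences below was not tested.

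**Figure D2:**
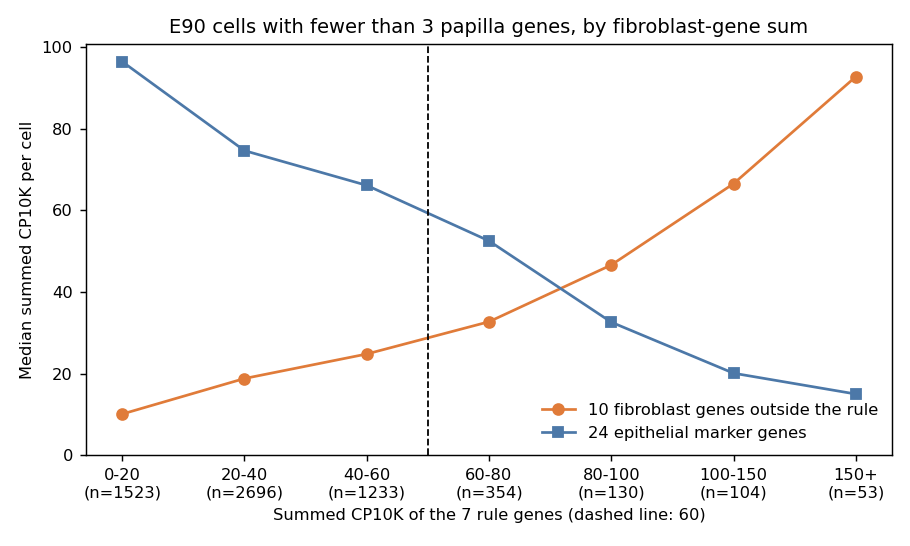
Median level per cell (vertical axis, UMIs per 10000) of 10 fibroblast genes outside the rule and of 24 epithelial genes in E90 cells with fewer than 3 papilla genes, by range of the fibroblast-gene sum (horizontal axis, with cells per range). The fibroblast genes, chosen with earlier results of these data known, go from 10.1 to 92.7. The epithelial genes go from 96.4 to 15, and neither set has a step at the dashed line.

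Most rule genes took similar proportions of the rule-gene counts inside and outside the group, apart from FBLN1, with 2.80% in fibroblast-rule cells and 4.63% in other E90 cells. Decorin (DCN), a proteoglycan that binds collagen fibrils, was 33.4% of the rule-gene counts in fibroblast-rule cells, 32.1% in other E90 cells and 27.8% in endothelial-gene cells. COL1A1, a chain of type I collagen, was 19.3%, 17.5% and 17.7%. At E60 the mix differed: periostin (POSTN), a matricellular protein, was 34.5% of the sum there against 13.9% in E90 fibroblast-rule cells, and DCN was 23.1%. PDGFRA, the receptor for platelet-derived growth factor on mesenchyme, was 1.89% of the sum in E90 fibroblast-rule cells and 0.171% at E60.

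In levels, DCN stood at 3308 CPM in fibroblast-rule cells, 984 CPM in other E90 cells, 4709.6 CPM at E60 and 6718 CPM at E120. COL1A1 stood at 1911, 537, 2010.1 and 730.1 CPM in the same 4 groups, and COL1A2 at 1563, 510.3, 1717 and 877 CPM. Type I collagen was thus close between these chosen cells of E60 and E90, with an E90 to E60 ratio of 0.951 (0.926 to 0.976) for COL1A1. The rule genes chose the cells at both stages, taking 86.6% of E60 cells and 9.25% of E90 cells. Their levels between stages are therefore a description only. Lumican (LUM) was 1293 CPM against 426, 3622 and 112 CPM, and POSTN 1377 CPM against 419, 7036 and 672 CPM, so both were highest at E60. Fibulin-1 (FBLN1), which binds elastic fibres, stood at 277 CPM against 142, 1262 and 177 CPM. PDGFRA was instead lower at E60 than in fibroblast-rule cells of E90, with 187 CPM in fibroblast-rule cells, 47.7 CPM in other E90 cells, 34.8 CPM at E60 and 8.14 CPM at E120. Of the 12 papilla genes, 138 cells had a UMI of none, 278 of 1 and 225 of 2.

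Against the other cells of E90, fibroblast-rule cells were set apart by the opioid peptide precursor PENK and by matrix and matrix-processing genes, and keratin and globin transcripts were lower in them. Of 4594 genes with at least 20 CPM on either side, 4 were at least 4-fold higher (0.0871%) and 2 at least 4-fold lower (0.0435%). At 2-fold, a limit chosen after the data were seen, 263 were higher (5.72%) and 171 lower (3.72%), and the median log2 ratio over all genes was 0.12. The log2 ratio lay above 0 for 2953 of the 4594 genes and below it for 1641. The rule chose the cells, so these counts describe them and are no evidence of a difference.

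Calls were made on log2 ratios with 1 CPM added to either side, whereas the folds printed are plain ratios of CPM. FN1, NDNF and NTN1, with plain ratios of 4.05, 4.01 and 4.0, therefore lay just short of the call, at log2 ratios of 1.99, 1.96 and 1.92. The 4 genes past 4-fold were PENK, FNDC1, LOX and CCBE1, of which FNDC1 and CCBE1 are named for having passed, after their values were seen. PENK encodes proenkephalin and stood at 1131 CPM (1094 to 1169.8) in fibroblast-rule cells and 246 CPM in other E90 cells, 4.60-fold higher (4.42 to 4.80). It was 32.7 CPM in endothelial-gene cells and 125 CPM in the epithelium-rich cells. After every cell was thinned to 3000 UMIs, 66.0% of fibroblast-rule cells had a PENK UMI (71.9% unthinned), against 42.4% of other E90 cells and 10.3% of endothelial-gene cells, whose median depths before thinning were 3771, 3707 and 4089 UMIs. Without the 5% of cells with the most UMIs the log2 ratio of PENK was 1.91, and with each cell weighing the same 1.93, both short of the call. LOX, the lysyl oxidase that cross-links collagen and elastin, stood at 72.8 CPM against 17.4 CPM, a ratio of 4.2 (3.56 to 4.93). FNDC1, a protein with fibronectin type III domains, stood at 89.4 CPM against 16.1 CPM, 5.54-fold higher (4.74 to 6.46). CCBE1, a secreted protein needed for lymphatic growth, was much scarcer, at 24.2 CPM against 4.92 CPM. The 2 genes past 4-fold in the other direction carry identifiers only, without a symbol.

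**Figure D3:**
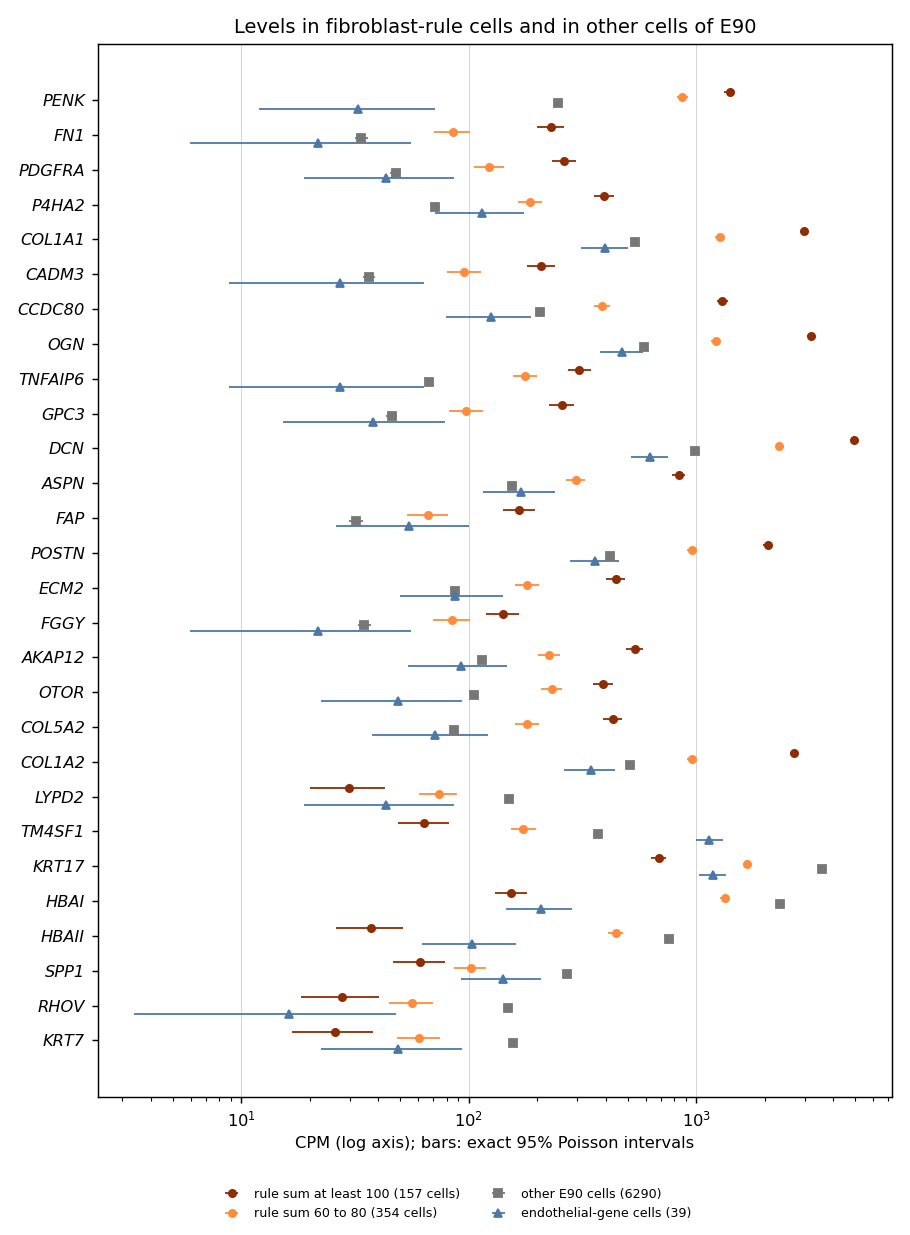
Level in CPM (log axis, exact 95% Poisson bars) of the 20 highest and 8 lowest named genes against other E90 cells, in fibroblast-rule cells with a sum of at least 100 and of 60 to 80, in other E90 cells and in 39 endothelial-gene cells. Most fibroblast genes are highest at sums of 100 or more, with PENK at 1405 CPM there, and the keratins and globins have the reverse order.

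Among the 20 named genes highest against other E90 cells were 5 rule genes, which the rule set: PDGFRA, COL1A1, DCN, POSTN and COL1A2. The other 15 were outside the rule. Osteoglycin (OGN), a small leucine-rich proteoglycan, was the most abundant, at 2016 CPM against 588 CPM (3.43-fold, 3.33 to 3.53). CCDC80, a secreted matrix protein, stood at 705 CPM against 205 CPM (3.44-fold, 3.27 to 3.61), and asporin (ASPN), another proteoglycan of this family, at 516 CPM against 155 CPM. Fibronectin (FN1) was 4.05-fold higher (3.60 to 4.56), at 136 CPM against 33.6 CPM. TNFAIP6, which links hyaluronan to proteins, was 232 CPM against 67.1 CPM. P4HA2, a prolyl hydroxylase that stabilises the collagen helix, was 262 CPM against 71.2 CPM, and ECM2, a matrix protein, 284 CPM against 87.2 CPM. The other members of this set were CADM3, GPC3, FAP, FGGY, AKAP12, OTOR and COL5A2, with ratios of 3.59, 3.44, 3.36, 3.22, 3.17, 3.15 and 3.14. Several also had counts in endothelial-gene cells: 125 CPM of CCDC80, 114 CPM of P4HA2 and 169 CPM of ASPN.

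The 8 named genes lowest against other E90 cells included the keratins KRT17 and KRT7 and the globins HBAI and HBAII. KRT17, a keratin of the follicle epithelium, was 1225 CPM in fibroblast-rule cells and 3566 CPM in other E90 cells, and KRT7 was 43.7 CPM against 157 CPM. HBAI stood at 787 CPM against 2336 CPM and HBAII at 253 CPM against 761 CPM. RHOV, SPP1, TM4SF1 and LYPD2 made up the rest, each between 2.92 and 3.45 times lower. Of 19 epithelial markers with enough counts, 17 were at least 2-fold lower and all 19 lay below 0, with a median log2 ratio of -1.25. Over all 4594 genes, 3.72% were at least 2-fold lower and 1641 lay below 0. None of the epithelial markers was absent from fibroblast-rule cells.

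Collagen genes were higher throughout, apart from COL14A1 and COL28A1. Of 12 collagens with enough counts, 8 were at least 2-fold higher and none at least 2-fold lower, with a median log2 ratio of 1.15. COL1A1 and COL1A2, which are among the 8, were set by the rule. COL5A2, which regulates fibril diameter, stood at 271 CPM against 86.1 CPM, and COL6A3, a chain of the beaded collagen VI filament, at 196 CPM against 73.3 CPM. The basement membrane collagen COL4A1 was 299.5 CPM against 132 CPM, but it was higher still in endothelial-gene cells, at 1143 CPM. COL14A1, which binds to fibril surfaces, was 92.7 CPM against 104 CPM.

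The enzymes and chaperones that process collagen went the same way. All 13 lay above 0, with a median log2 ratio of 0.92, and 6 were at least 2-fold higher. Over all 4594 genes, 2953 lay above 0 and 5.72% were at least 2-fold higher. SPARC, a collagen-binding matricellular protein, stood at 2663 CPM against 1409 CPM, and SERPINH1, the collagen chaperone, at 986 CPM against 605 CPM. The cross-linking enzyme LOXL1 was 42.0 CPM against 13.8 CPM. SPARC and SERPINH1 are also made by vascular cells and reached 1812 CPM and 1382 CPM in the endothelial-gene cells.

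Of the 7 small leucine-rich proteoglycans, 6 were at least 2-fold higher, and the exception was BGN, at 22.2 CPM against 14.6 CPM. DCN and LUM belong to this list and to the rule. Elastic fibre genes gave 6 of 7 at least 2-fold higher, with a median log2 ratio of 1.19. FBN2, the fetal fibrillin, was 119 CPM against 39.4 CPM (3.03-fold, 2.69 to 3.42), and MFAP5, a microfibril protein, 166 CPM against 59.3 CPM. FBLN1, a rule gene, was the 1 that stayed under 2-fold.

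Matricellular and adhesive proteins included 12 of 20 at least 2-fold higher, the rule gene POSTN among them, with a median log2 ratio of 1.21. CCN1, a secreted target of mechanical signalling, was 1294 CPM against 566 CPM, the hyaluronan-binding proteoglycan VCAN 546 CPM against 252 CPM, and TGFBI 455 CPM against 193 CPM. CCN2 and SMOC2 lay below 0, at 196 CPM against 238 CPM and 33.4 CPM against 58.3 CPM. Of 9 proteases and inhibitors, 7 were at least 2-fold higher. MMP2, a gelatinase, stood at 381 CPM against 146 CPM, its inhibitor TIMP2 at 559 CPM against 243 CPM, and the fibroblast activation protein FAP at 107 CPM against 32.0 CPM.

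Signalling genes divided within each pathway, with medians near that of all genes. Of 21 WNT pathway genes 5 were at least 2-fold higher and 1 lower, with a median log2 ratio of 0.19. The higher ones were the ligands WNT5B, WNT11 and WNT16 and the secreted modulators SFRP2 and DKK3. SFRP2 stood at 54.3 CPM against 14.5 CPM (3.75-fold, 3.10 to 4.50) and WNT16 at 48.3 CPM against 13.8 CPM (3.49-fold, 2.87 to 4.24). The lower one was LGR5, an R-spondin receptor of follicle epithelium, at 39.4 CPM against 82.4 CPM. The WNT target APCDD1 and the nuclear effectors TCF7L2 and LEF1 were within 2-fold, at 535, 263 and 106 CPM against 411, 174 and 92.7 CPM.

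In the BMP and TGF-beta list 2 of 14 were at least 2-fold higher, and the median log2 ratio was -0.17. They were TGFBR3, a co-receptor, at 281 CPM against 122 CPM, and FSTL1, a secreted antagonist, at 256 CPM against 105 CPM. The BMP target genes ID1 and ID3 stood lower, at 115 CPM against 212 CPM and 142 CPM against 210.4 CPM. Among 15 genes of the IGF, FGF and PDGF pathways, PDGFRA, PDGFRL, ANGPTL1 and IGF2R were at least 2-fold higher, PDGFRA by the rule. The ligand PDGFA, made by epithelium, was the 1 that was lower, at 82.7 CPM against 170.2 CPM. IGF1 was 225 CPM against 153 CPM and the receptor FGFR1 159 CPM against 102 CPM, both within 2-fold.

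The hedgehog receptor and target PTCH1 barely differed, at 317 CPM in fibroblast-rule cells and 289 CPM in other E90 cells, and it was 125 CPM in endothelial-gene cells. Of 14 genes for hedgehog, Notch and retinoid signalling, only CRABP1 and RARRES2 passed 2-fold, both upward. CRABP1, which binds retinoic acid in the cytoplasm, stood at 1365 CPM against 526 CPM. CRABP2 was 627 CPM against 355 CPM, and the retinoic-acid-degrading enzyme CYP26B1 144 CPM against 90.3 CPM. HES1, a Notch target, lay below 0 at 308 CPM against 458 CPM.

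Of 22 transcription factors of dermal mesenchyme, 4 were at least 2-fold higher and 1 lower, against 5.72% and 3.72% of all genes. There 15 lay above 0 and 7 below it, with a median log2 ratio of 0.51. That split was close to the 2953 above and 1641 below over all 4594 genes. OSR2 was the furthest up, at 72.8 CPM in fibroblast-rule cells (3.64-fold, 3.10 to 4.27). ZEB2, ZEB1 and EN1 followed at 239.9, 120.5 and 40.7 CPM against 93.4, 58.7 and 16.9 CPM. TBX15 and PRRX1, both factors of dermal mesenchyme, were within 2-fold at 135 and 109.5 CPM against 71.6 and 60.6 CPM. SOX9, a factor of follicle epithelium at this age, was 149 CPM against 348 CPM.

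Neither dermal layer was higher throughout. Among 12 papillary genes, CRABP1, TRPS1, NTN1 and LRIG1 were at least 2-fold higher and none lower, against 5.72% and 3.72% of all genes. There 7 lay above 0 and 5 below it, with a median log2 ratio of 0.25. Among 7 reticular and hypodermal genes PLAC9 and MFAP5 were at least 2-fold higher and none lower. Of these 7, 3 lay above 0 and 4 below it, and the median was -0.38. The whole lists summed to 3411 CPM against 2245 CPM and to 1215 CPM against 763 CPM. DLK1, a marker of deep fetal dermis, was 23.8 CPM against 40.5 CPM, and the adipogenic factor PPARG 25.8 CPM against 24.6 CPM. Of 7 genes known from tendon, cartilage and fascia, 5 were at least 2-fold higher: OTOR, CILP, THBS4, MKX and FMOD. CILP stood at 292 CPM against 102 CPM and OTOR at 333 CPM against 106 CPM, while the cartilage collagen COL2A1 had no count in fibroblast-rule cells.

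Chemokines and other secreted signals split. Besides PENK, APOE at 863 CPM against 395 CPM and CXCL12 at 83.4 CPM against 34.4 CPM were at least 2-fold higher. TAC1, CXCL8, C1S and CHGA were at least 2-fold lower, all under 40 CPM on either side. CXCL14, the most abundant of the list, was 2375 CPM in fibroblast-rule cells and 3263 CPM in other E90 cells, and 1562 CPM in endothelial-gene cells. Guidance and adhesion genes gave 5 of 26 at least 2-fold higher and 3 lower. NTN1, SEMA3A, LRRC17, CDH11 and SLIT3 were the higher ones, with SEMA3A at 62.6 CPM against 16.4 CPM. SEMA3E, ALCAM and CHL1 were the lower ones, with SEMA3E at 63.2 CPM against 178 CPM.

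Cell-cycle genes did not pass 2-fold. All 8 mitotic genes with enough counts lay below 0, none by 2-fold, with a median log2 ratio of -0.42, and their whole list summed to 486 CPM against 649 CPM. Over all 4594 genes, 1641 lay below 0. TOP2A was 147 CPM against 192 CPM and CENPF 132 CPM against 165 CPM. Immediate early genes, which tissue dissociation can induce, were high in every E90 group. FOS stood at 6508 CPM in fibroblast-rule cells and 7593 CPM in other E90 cells, against 4603 CPM at E60. The list as a whole summed to 13263 CPM against 15059 CPM in other E90 cells.

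The 157 cells with a sum of 100 or more had more genes past the calls than those at 60 to 80. A higher cut on the same rule sum chose them, and rule genes are among the genes counted. The counts are therefore a description and no separate support. Median depth was 5875 UMIs against 3508 UMIs at 60 to 80, and the median mitochondrial share 6.48% against 10.0%. Against the same other E90 cells, 80 of 4802 genes were at least 4-fold higher (1.67%) and 110 at least 4-fold lower (2.29%). For the 354 cells at 60 to 80, none of 4500 was at least 4-fold higher (0%) and 2 were at least 4-fold lower (0.0444%). At 2-fold the high range had 518 genes higher (10.8%) and 352 lower (7.33%), and the low range 105 higher (2.33%) and 59 lower (1.31%). LOX and FNDC1 had the largest ratios among named genes in the high range, 8.49 (6.99 to 10.3) and 8.81 (7.22 to 10.7). CCDC80 was 1302 CPM there, OGN 3194 CPM, SFRP2 97.9 CPM and PENK 1405 CPM. Of 19 epithelial genes, 11 were at least 4-fold lower than in other E90 cells, yet they still summed to 2111 CPM.

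Within fibroblast-rule cells, the high and low ranges differed in more than the rule genes. Of 4729 genes, 5 were at least 4-fold higher at 100 or more than at 60 to 80 (0.106%) and 25 at least 4-fold lower (0.529%). At 2-fold 169 were higher (3.57%) and 179 lower (3.79%). The higher ones with a symbol, named after their values were seen, were LOX, PLA2R1, MFAP4 and CCN3. LOX was 147 CPM against 34.1 CPM (4.32-fold, 3.11 to 6.11), and MFAP4, a microfibril protein, 30.9 CPM against 3.48 CPM. MFAP4 and CCN3 rested on 5 and 7 counts in the low range. COL1A2 was 2.80-fold higher (2.62 to 2.99) and CCDC80 3.38-fold higher (3.05 to 3.74), the first by the rule.

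Lower in the high range were epithelial genes, globins, mitotic genes and some signalling genes. All 17 epithelial markers with enough counts were at least 2-fold lower, with sums of 2111 CPM against 5157 CPM. DSP, a desmosome gene, was 99.0 CPM against 276 CPM and the keratin KRT4 152 CPM against 415 CPM. These markers of another cell type moved with every other difference between the ranges, and their part in it was not tested. HBAI was 154 CPM against 1337 CPM and HBAII 37.1 CPM against 442 CPM. BMP3 was 5.15 CPM against 56.4 CPM, COCH 3.09 CPM against 36.2 CPM and RGS1, a gene of leukocytes, 3.09 CPM against 36.9 CPM. These 3 rested on 5, 3 and 3 counts in the high range. The class II histocompatibility gene DRB3, a marker of antigen-presenting cells whose counts may be shared with related genes, was 6.18 CPM against 52.2 CPM. CXCL14 was 1449 CPM against 3085 CPM, the endothelial and papilla factor SOX18 178 CPM against 456 CPM, and BMP7 34.0 CPM against 118 CPM. Mitotic genes summed to 275 CPM against 643 CPM, and 5 of 9 were at least 2-fold lower, with CENPF at 70.1 CPM against 178 CPM. By contrast PENK differed by 1.62-fold (1.5 to 1.75) and SOST by 1.66-fold (1.26 to 2.20).

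The nearest cells in E90 were 153 that reached the same minimum fibroblast-gene sum but had a UMI for 3 or more papilla genes. They were deeper, with a median of 4867 UMIs, and depth raises the chance of a UMI for 3 genes. Fibroblast-rule cells were higher in PENK, CILP and OTOR and lower in GAP43, CAPN6, HAPLN3 and SPON1. Of 4749 genes, 3 were at least 4-fold higher (0.0632%) and 26 at least 4-fold lower (0.547%) in fibroblast-rule cells, with a median log2 ratio of -0.06. At 2-fold 60 were higher (1.26%) and 140 lower (2.95%).

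**Figure D4:**
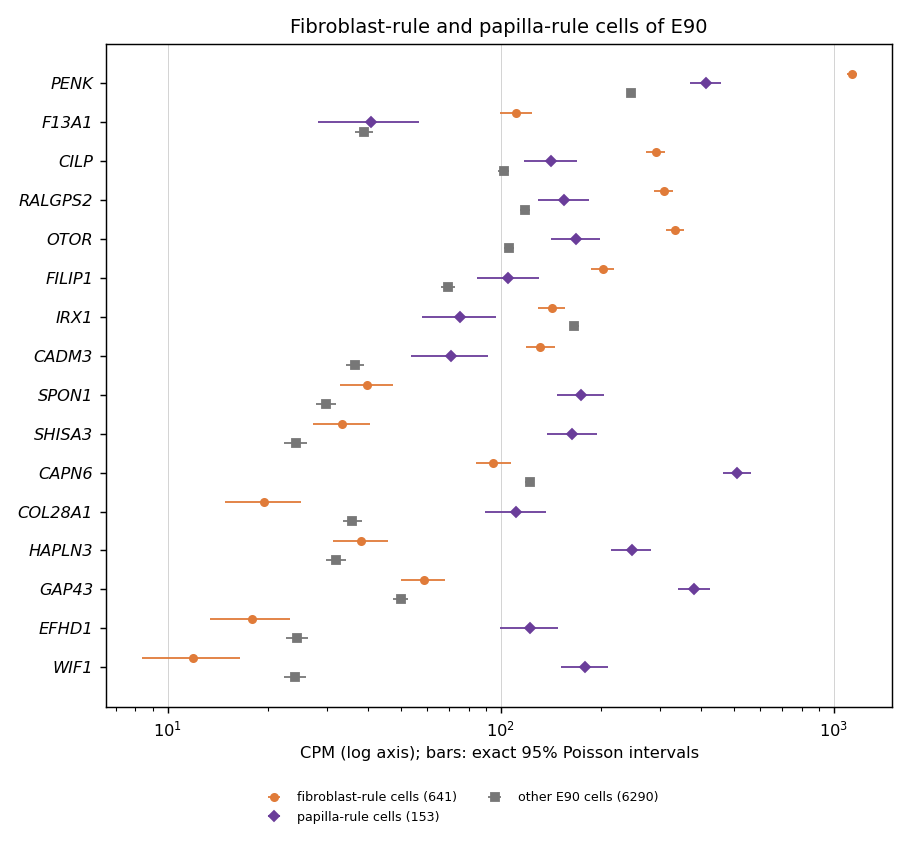
Level in CPM (log axis, exact 95% Poisson bars) of the 8 highest and 8 lowest named genes of fibroblast-rule against papilla-rule cells, with other E90 cells for reference. PENK is highest in fibroblast-rule cells (1131 CPM), while GAP43 and CAPN6 are highest in papilla-rule cells (381 and 512 CPM) and similar in both other groups.

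DCN was level between the groups, with 3308 CPM in fibroblast-rule and 3307 CPM in papilla-rule cells, and OGN was higher in fibroblast-rule cells, at 2016 CPM against 1162 CPM. PENK was 2.74-fold higher (2.46 to 3.08), at 1131 CPM against 412 CPM. F13A1, a transglutaminase subunit, was 111 CPM against 40.7 CPM (2.73-fold, 1.92 to 4.01). CILP was 292 CPM against 141 CPM and IRX1, a homeobox factor, 142 CPM against 75.5 CPM. In the list of dermal transcription factors, 3 of 21 tested were at least 2-fold higher and 4 at least 2-fold lower, against 1.26% and 2.95% of all genes. There 9 lay above 0 and 12 below it, against 1964 and 2785 of all 4749 genes, with a median log2 ratio of -0.11. The 3 higher ones were IRX3, IRX5 and OSR2, at 81.1, 91.7 and 72.8 CPM against 35.9, 39.5 and 28.8 CPM. The 3 genes past 4-fold were CXCL10, DRB3 and the related histocompatibility gene CAHI-DQA2. CXCL10 stood at 46.7 CPM against 10.8 CPM, and after thinning 4.84% of fibroblast-rule and 4.58% of papilla-rule cells had a UMI of it, so the counts came from few cells of either group.

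Among the 26 lower genes, WIF1, SOX2 and HHIP were set by the rule. GAP43, a growth-associated protein, was 58.6 CPM in fibroblast-rule cells against 381 CPM (6.5-fold lower, 5.40 to 7.86). CAPN6, a calpain-family protein, was 95 CPM against 512 CPM, HAPLN3, a hyaluronan link protein, 38.1 CPM against 247 CPM, and SPON1, an adhesion protein, 39.7 CPM against 174 CPM. TNMD, a tendon gene, was 5.30 CPM against 87.5 CPM, and EFHD1 17.9 CPM against 122 CPM. In other E90 cells GAP43 was 50.1 CPM and CAPN6 122 CPM, so fibroblast-rule cells resembled the rest of the library in these genes. Collagens leaned to the papilla-rule side, with 14 of 15 lower in fibroblast-rule cells, 6 of them at least 2-fold. Over all 4749 genes, 2785 were lower and 1964 higher in fibroblast-rule cells, and 2.95% were at least 2-fold lower. COL1A2, a rule gene, was 1563 CPM against 2951 CPM and COL11A1 104 CPM against 379.8 CPM. Papilla-rule cells also had higher fibroblast-gene sums, with a median of 94.8 against 77.2 in fibroblast-rule cells. Within fibroblast-rule cells, 11 of 13 collagens were higher at sums of 100 or more than at 60 to 80, and 2 were lower. Over all 4729 genes of that comparison, 2852 were higher and 1877 lower. The part of the sum in the collagen difference was not tested. All 14 tested condensate and papilla markers were lower, though several of them are rule genes, and PTCH1, which is not, was 317 CPM against 654 CPM.

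At E60 the same rule took most cells of the library, which were deeper and held almost no keratin counts. Compared with them, E90 fibroblast-rule cells were higher in CCDC80, chains of type IV and VI collagen and the hedgehog target PTCH1. They were lower in TNC, DLK1 and, as summed counts, in mitotic genes. PDGFRA was also higher and POSTN lower, but both are rule genes that helped choose the cells at either stage. Their difference is a description only. PENK was 1131 CPM against 305 CPM, 3.71-fold higher (3.58 to 3.85), which is short of the 4-fold call. Of 4649 genes, 308 were at least 4-fold higher at E90 (6.63%) and 78 at least 4-fold lower (1.68%), with a median log2 ratio of 0.17. At 2-fold 1063 were higher (22.9%) and 296 lower (6.37%). The largest ratios were those of KRT1, KRT17, KRT4, KRT14, DSP, SPINK5, KRT10 and DSG1. Those epithelial genes were near 0 in E60 fibroblast-rule cells and higher in other E90 cells than in fibroblast-rule ones. KRT1 had no count at E60, which makes it at least 16736-fold higher at E90 against a floor of 3 counts over the group, and KRT17 was 1225 CPM against 0.347 CPM.

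To set aside what the whole E90 library shared, genes were also required to be 2-fold above other E90 cells, a condition added after the data were seen. Of the 308 genes, 59 met it (19.2%), 49 of them with a symbol, and 123 were lower in fibroblast-rule cells than in other E90 cells (39.9%). The genes of this paragraph were picked after their values were seen. SOST, which encodes the WNT antagonist sclerostin, was 94.7 CPM at E90 (84.0 to 106) and 0.0365 CPM at E60, where it had 2 counts, a ratio of 2593 (711 to 21514). It was 26.2 CPM in other E90 cells and had no count in endothelial-gene cells. WNT16 stood at 48.3 CPM against 0.219 CPM and NDNF, a secreted neuronal and vascular factor, at 96.3 CPM against 2.10 CPM (45.9-fold, 36.8 to 57.4). The transcription factor TRPS1, mutated in a human hair and bone syndrome, was 234 CPM against 8.10 CPM (28.8-fold, 25.6 to 32.5). CCDC80 was 705 CPM against 57.9 CPM, ECM2 284 CPM against 39.2 CPM and COL6A3 196 CPM against 29.3 CPM. SEMA3A, OSR2 and SHOX2 stood at 62.6, 72.8 and 216 CPM against 7.30, 9.0 and 50.4 CPM. All of these were also higher in cells with a sum of 100 or more than in other E90 cells, with SOST at 114 CPM, WNT16 at 44.3 CPM and TRPS1 at 266 CPM. Those cells are part of the group by which the genes were picked, so this is no separate check. COCH, another of the 59 genes, was 3.09 CPM in them and 13.6 CPM in other E90 cells.

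**Figure D5:**
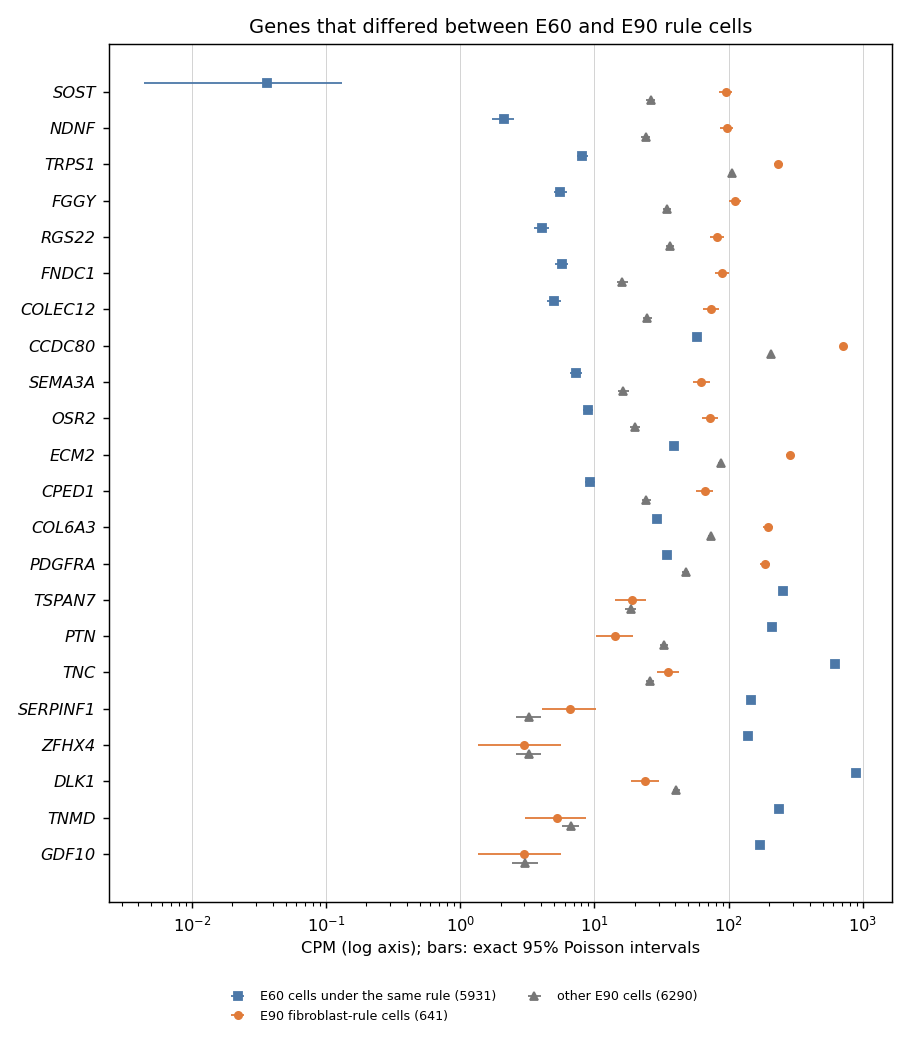
Level in CPM (log axis, exact 95% Poisson bars) in E60 cells under the same rule, E90 fibroblast-rule cells and other E90 cells, for 14 genes higher at E90 than at E60 and in fibroblast-rule than in other E90 cells, and for the 8 lowest named genes. SOST rests on 2 counts at E60, and for DLK1, GDF10, TNMD and ZFHX4 both E90 groups lie far below E60.

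Several genes lower at E90 were also low in other E90 cells. DLK1 was 892 CPM at E60 and 23.8 CPM in E90 fibroblast-rule cells (37.4-fold lower, 29.7 to 47.8), and 40.5 CPM in other E90 cells. Tenascin C (TNC), a matrix protein of developing mesenchyme, was 618 CPM against 35.4 CPM, and 25.9 CPM in other E90 cells. The growth factor PTN was 209 CPM against 14.2 CPM, and 33.0 CPM in other E90 cells. GDF10, a TGF-beta family ligand, had 9 counts (2.98 CPM) at E90 and 171 CPM at E60, and ZFHX4 also had 9 counts at E90. TNMD and SERPINF1 were 5.30 and 6.62 CPM against 236 and 146 CPM, and TSPAN7 was 18.9 CPM against 254 CPM. TNMD and SERPINF1 were 6.68 and 3.27 CPM in other E90 cells but 87.5 and 45.5 CPM in papilla-rule cells. CYTL1, CCL11 and COL2A1 had no count in E90 fibroblast-rule cells and 98.2, 26.4 and 26.8 CPM at E60, which makes them at least 98.9, 26.6 and 27.0-fold lower.

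By gene list, the stage difference was mixed for matrix genes. Over all genes of this comparison, 22.9% were at least 2-fold higher at E90 and 6.37% at least 2-fold lower. Rule genes are among the members of these lists. Collagens gave 4 of 12 at least 2-fold higher at E90 and 3 lower, and the median log2 ratio was 0.58. COL4A1 was 299.5 CPM against 62.1 CPM, while COL24A1 was 18.5 CPM against 112 CPM. Small leucine-rich proteoglycans had a median of -0.51, with ECM2 higher, BGN lower at 22.2 CPM against 147 CPM, and OGN at 2016 CPM against 1094 CPM. In the matricellular list 7 of 20 were at least 2-fold higher and 4 lower. SPARCL1, at 318 CPM against 7.74 CPM, was the furthest up, but it was also 243 CPM in other E90 cells and 1127 CPM in endothelial-gene cells.

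Hedgehog, Notch and retinoid genes leaned to E90, with 8 of 14 at least 2-fold higher, 2 lower and a median log2 ratio of 1.20. Over all genes the shares were 22.9% higher and 6.37% lower. PTCH1 was 317 CPM against 26.2 CPM (12.1-fold, 11.1 to 13.1), CYP26B1 144 CPM against 10.4 CPM and HES1 308 CPM against 36.6 CPM. CRABP1 went the other way, at 1365 CPM against 4202 CPM. As PTCH1 and HES1 stood at 289 CPM and 458 CPM in other E90 cells, these differences were shared with the rest of that library. BMP and TGF-beta genes gave 8 of 16 at least 2-fold higher and 2 lower, and IGF, FGF and PDGF genes 9 of 21 higher and 6 lower. IGFBP5, which binds IGF, was 53.3 CPM against 411 CPM, and the PDGF ligand PDGFA was 82.7 CPM against 10.1 CPM.

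In summed counts, all 10 tested mitotic genes were lower at E90, 7 of them at least 2-fold, with a median log2 ratio of -1.23. In the cells with a sum of 100 or more all 10 were at least 2-fold lower and the median was -2.23. Over all 4757 genes of that comparison, 347 were at least 2-fold lower (7.29%) and 1295 higher (27.2%), and at 4-fold 112 were lower (2.35%) and 411 higher (8.64%). The list summed to 486 CPM at E90 and 1123 CPM at E60, with CENPF at 132 CPM against 317 CPM. Per cell the picture differed. The median mitotic level was 3.07 per 10000 at E90 and 0 at E60, the 90th percentile was 12.8 and 29.4, and 75.4% of cells had a mitotic UMI at E90 against 42.4% at E60, at median depths of 3771 and 8474 UMIs. The E60 sum thus came from fewer of its cells, with more counts in each. In DNA replication, 8 of 8 genes were lower at E90 in summed counts, with sums of 443 CPM and 767 CPM and a median of -0.83, while their median per cell was 3.01 per 10000 at E90 and 2.30 at E60. Of the tested immediate early genes, 11 of 14 were above 0, with ATF3 at 172 CPM against 14.2 CPM. Over all 4649 genes of the comparison with E60, 2685 lay above 0 and 1964 below it.

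The 124 cells taken by the rule at E120 differed from those of E90 in their summed counts. DCN made up 72.3% of their rule-gene counts, and they held 687 CPM of SHH, 393 CPM of the hair shaft keratin KRT35 and 267 CPM of the inner root sheath keratin KRT71, genes of follicle epithelium. Fibroblast-rule cells of E90 had 9.93 CPM of SHH, 1.65 CPM of KRT35 and no count of KRT71. The sum of the 24 epithelial marker genes went the other way, with 3778 CPM at E90 and 1536 CPM at E120. Of the 16 with enough counts, 10 were higher at E90, 9 of them at least 2-fold. The other 6 were lower at E90, 1 of them at least 2-fold. KRT4, KRT1 and KRT10 were among the 8 named genes highest at E90 against E120. Of 4919 genes, 433 were at least 4-fold higher at E90 (8.80%) and 198 at least 4-fold lower (4.03%). PENK had 1 count at E120, so that its ratio of 1389.8 has an interval of 249 to 54911, and CILP had none, making it at least 119-fold higher at E90. OGN was 2016 CPM against 57.0 CPM. Of the rule genes, PDGFRA was 187 CPM against 8.14 CPM and COL1A1 1911 CPM against 730.1 CPM. Lower at E90 were CCL20 at 6.29 CPM against 625 CPM and the homeobox gene MSX1 at 0.993 CPM against 160.3 CPM.

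Among the 641 cells, variation beyond counting noise was found for 50 of 834 genes, taken as a variance at least 2 times the mean in counts thinned to 3000 UMIs. The median of this ratio over the 834 genes was 1.09. HBAI and HBAII led with 42.9 and 16.6, since 29.5% of cells had an HBAI UMI and the highest had 105. The mitochondrial genes COX3, CYTB, COX2 and ND2 varied with the mitochondrial share, which is in part built in because they are among the genes summed for it. CXCL14 (9.30), PENK (7.60), FOS (6.99), VIM (6.48), POSTN (6.46) and OGN (6.4) came next, then CCN1, SPARCL1 and COL1A2. For PENK the 10th percentile was 0, the median 1.00, the 90th percentile 8.0 and the highest cell 44.0 of 3000 UMIs. For CXCL14 these values were 1.00, 6.0, 14 and 107, and for OGN 1.00, 3.00, 12 and 44.0. Every one of these genes spread widely within a single library, and cells of different fetuses cannot be told apart in it.

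Rank correlations over cells describe how these genes varied together, on thinned counts that share library, depth and the epithelial gradient. Over 641 cells PENK went weakly with CILP (Spearman rho 0.30) and TGFBI (0.32) and against CXCL14 (-0.25). In the 157 cells with a sum of 100 or more these values were 0.36, 0.35 and -0.24. CXCL14 went with SOX18 (0.33), SPARCL1 (0.30) and IGF1 (0.28) and against OGN (-0.34, or -0.42 in the 157 cells). OGN went with LRRC17, at 0.33 over all cells and 0.51 in the 157. COL1A1 and COL1A2, chains of the same collagen, gave 0.38 and 0.47, and FOS and JUN 0.36 and 0.54. All of these values are low, and in sparse counts such values are a description only. The rule sum itself went with depth (0.36) and against the epithelial sum (-0.49) and the mitochondrial share (-0.39).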

How the data were processed

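Droplet single-cell RNA-seq libraries of goat fetal back skin were analysed, 1 per stage. The authors deposited natural log values, ln(1 + counts per 10000), per gene and cell; Cell Ranger 3.0.2 is named per the submitters' processing notes, and the genome build is not given in the sources used here. Whole UMI counts were recovered from these deposited values, as each cell's lowest value stands for 1 UMI, and 100.0% of the nonzero values were whole within 0.01. Counts were summed over the cells of a group and scaled to CPM. Log2 ratios had 1 CPM added, genes needed 20 CPM in the higher group, and a call was a 4-fold ratio. As each stage had a single library, nothing was tested. Intervals were exact 95% Poisson, Clopper-Pearson or conditional binomial intervals, a count of 0 was bounded by a floor of 3 counts over the group, and cells were thinned to 3000 UMIs (seed 20) where shares or variation were compared. At that depth 9 cells of the E120 library and none of the others were too shallow. Per library the totals were 65049552 (E60), 30277663 (E90) and 93403291 (E120) UMIs, with medians of 8579, 3714 and 13064 per cell.

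Named genes were the rule genes; the 20 highest and 8 lowest log2 ratios against other E90 cells, and the 8 highest and 8 lowest in each other comparison, among genes with a symbol and 100 CPM; the 15 most variable genes with their best correlates; and, per gene list, up to 5 of highest level and 3 of largest ratio. Others were named after their values were seen. The members and the lists were chosen with earlier results of these data known. Of 16739 genes, 12709 had symbols, 11897 of them in RefSeq ARS1.2, and 4030 had Ensembl identifiers only. Doublets were neither called nor removed. The calculations were tested on simulated data. Python 3.11.15, numpy 2.4.6, scipy 1.17.1 and pandas 2.3.3 were used. Alternatives covered the rule, cells, scaling, filter and pseudocount.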

Additional observations from a re-analysis of the deposited data

How the results depend on the processing

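The number of fibroblast-rule cells, 641, was 1874 with a minimum sum of 40 per 10000, 287 with 80, 157 with 100, 416 with fewer than 2 papilla genes, 138 with none and 394 among cells with at most 10% mitochondrial counts. Counts of genes at least 4-fold higher and lower than in other E90 cells, 4 and 2, rested on few genes. They became 0 and 1 at a minimum of 40, 34 and 52 at 80, and 56 and 101 at 100, where the cells below the minimum joined the other side. Cells with at most 10% mitochondrial counts gave 21 and 70, cells with no papilla gene 11 and 25, and fewer than 2 papilla genes 7 lower. Other cells with a sum under 20 gave 113 and 48, and fibroblast-rule cells with epithelial sums at or below the E90 median gave 10 and 13. Without the 5% of cells with the most UMIs, with a pseudocount of 10 CPM, with a 100 CPM filter, or with each cell weighing the same, the counts were 1 and 1. Median-of-ratios scaling gave 2 and 7, no filter 7 and 12, and a 2-fold call 263 and 171.

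Against papilla-rule cells, 3 and 26 became 44 and 85 at a minimum of 100 and 22 and 47 at 80, with 16 lower at 40. The higher count was 0 with fewer than 2 papilla genes and with none, and 7 among cells with at most 10% mitochondrial counts. A pseudocount of 10 CPM gave 0 and 13, no filter 86 and 77, a 100 CPM filter 0 and 9, and a 2-fold call 60 and 140. Against E60, 308 and 78 became 116 and 38 with the larger pseudocount, 741 and 135 with no filter, 67 and 28 with a 100 CPM filter, and 1063 and 296 at 2-fold. Against E120, 433 and 198 became 209 and 96, 1002 and 337, 127 and 79, and 1013 and 665 under the same settings. Apart from the settings that change the filter, pseudocount or call by construction, the cause was not tested. The alternatives were also run for the 20 highest and 8 lowest named genes against other E90 cells and the 8 highest and 8 lowest in each other comparison, and turned the direction of none. SOX18 against E120 went to a log2 ratio of 0.00 where no papilla gene was allowed, since it is itself a papilla gene of the rule. Other named genes were not rerun. The 2-fold call, the minimum of 80, the removal of shared barcodes and the variation at sums of 100 or more were chosen after seeing the data. No paired analysis was possible because each stage had 1 library. Depth was lowest at E90, which limits genes of low level there.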
